A study of Drosophila melanogaster with 18 samples.

Results

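The phototransduction cascade genes are 10 genes that encode the arrestins, channels and signalling proteins with which *Drosophila* photoreceptors turn absorbed light into a change of membrane potential. They were chosen by symbol, as *Arr1*, *Arr2*, *ninaC*, *trp*, *trpl*, *norpA*, *inaC*, *inaD*, *Galphaq* and *rdgA*. No cut on their values was used, but earlier results of these data were known when they were chosen. All 10 were found among the 17288 gene identifiers of the expression table. Their levels come from RNA-seq of brains, dissected by hand, of young adult females and males and of ovaries, with 3 biological replicates in each of 6 groups and 18 libraries in all. The *tud* mutant flies were y, w; tud1, bw, sp/Df(2R)Pu rP133, in which a protein-null *tud* allele lies over a deficiency. The control flies, named wild-type in the labels, were y, w; tud1, bw, sp/CyO, P[w+, hs-hid]. Both genotypes therefore carried the same mutant *tud* chromosome and the y and w mutations, whereas the CyO balancer and its *w*+ transgene were in the control alone. The study asked what loss of the scaffold protein Tudor changes in the transcripts of the brain, with the sexes dissected separately and the ovary set beside them.

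In the photoreceptor, light converts rhodopsin to an active form that is stopped by arrestin and that switches on a heterotrimeric G protein of the Gq class. Its alpha subunit activates a phospholipase C, whose action on the membrane lipid PIP2 opens the TRP and TRPL cation channels, and a PDZ scaffold protein holds channel, phospholipase and protein kinase C together in the rhabdomere, the stack of microvilli that captures light. Most of these proteins are known above all from the compound eye and ocelli, whereas the phospholipase and the Gq subunit also act in other tissues.

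Values are FPKM, mapped fragments scaled to transcript length and to the size of the library, as the authors deposited them, and each set of 3 values below follows the order of replicates 1 to 3. Depth, read from the spacing of low values, was about 4730000 to 13000000 fragments in brain libraries and 19300000 to 26600000 in ovary libraries. The yolk protein gene *Yp1* was at 638 to 2674 FPKM in female and 0.461 to 13.5 FPKM in male brains, in accord with the labelled sexes. The *tud* gene itself was at 9.10, 11.6 and 12.4 FPKM in *tud* mutant ovaries and at 67.2, 61.0 and 63.2 FPKM in control ovaries. It was at 17.4, 17.9 and 12.9 FPKM in *tud* mutant male brains and at 36.2, 20.2 and 20.6 FPKM in control male brains. Among *tud* mutant female brains the values were 15.3, 32.3 and 14.1 FPKM, against 31.4, 26.0 and 23.9 FPKM in control female brains. The *tud* level of the second library of that mutant group goes against its label, so it is called here the library labelled *tud* mutant female brain replicate 2. *Cyp6a17*, a cytochrome P450 gene on the second chromosome, was at 0.328 FPKM in this library, near the 1.48 and 1.06 FPKM of the other mutant female brains and far from the 49.4 to 60.6 FPKM of control female brains. Control male brain replicate 2 also stood apart, with a median correlation of 0.919 with the other brain libraries across genes, against 0.949 to 0.975 for each of the rest. By this measure the library labelled *tud* mutant female brain replicate 2, set apart by its *tud* level, was at 0.957. Control male brain replicate 3 was lower, at 0.949, and was kept. Results are given with both of these libraries and, where they change, without them.

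All 10 genes were detected in every brain library, the lowest at 10.1 FPKM, and FPKM, which is scaled to transcript length, allows their levels to be ordered. *Arr2* was the highest, at 893 to 2662 FPKM over the 12 brain libraries (median 1414), followed by *Arr1* at 274 to 1167 FPKM (median 578) and *ninaC* at 71.1 to 295 FPKM (median 127). In each of the 12 libraries *Arr2* lay above *Arr1*, *Arr1* above *ninaC* and *ninaC* above *trp*. The next neighbours were not separated, since *trp* (median 78.6 FPKM) was above *Galphaq* (median 102 FPKM) in 6 of the 12 libraries. *Galphaq* was above *norpA* (median 65.2 FPKM) in 11 libraries, *norpA* above *trpl* (median 32.2 FPKM) in 10, and *trpl* above *inaC* (median 25.7 FPKM) in 10. At the low end, *inaC* was above *rdgA* (median 30.2 FPKM) in 8 libraries, and *rdgA* was above *inaD* (median 25.3 FPKM) in 5, so these 3 had no constant order. Every mutant brain lay above every control of its sex, in both sexes, for 5 of the 10 genes, as the plot of each library shows. The same held for 10% of the 10689 genes tested.

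**Figure D1:**
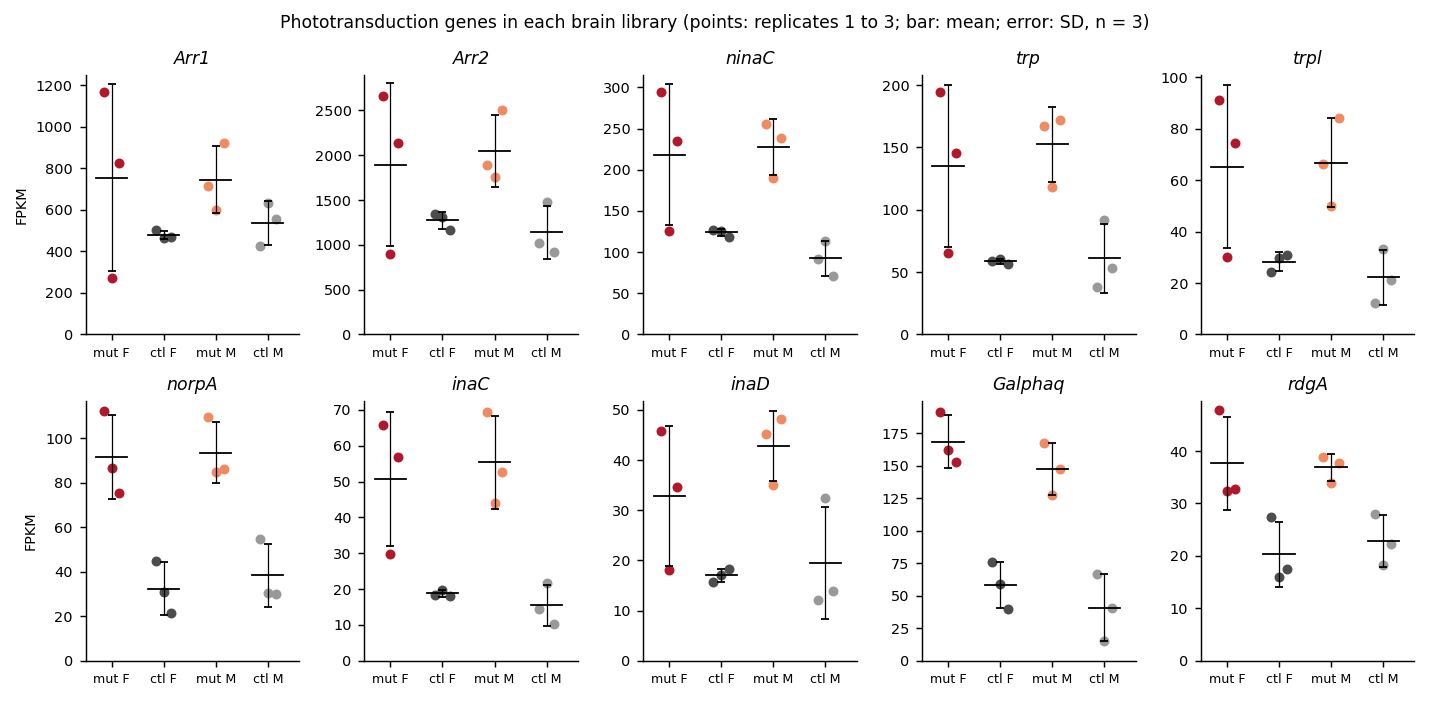
FPKM (vertical axes, linear, from 0) of the 10 genes in each of the 12 brain libraries, by group: *tud* mutant female (mut F), control female (ctl F), *tud* mutant male (mut M) and control male (ctl M). Points are replicates, bars are means and error bars are SD (n = 3); for *trp*, *norpA*, *inaC*, *Galphaq* and *rdgA* every mutant point lies above every control point of the same sex, whereas for *Arr1* the library labelled *tud* mutant female brain replicate 2, at 274 FPKM, is the lowest of all 12.

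Taken over both sexes, 8 of the 10 genes were upregulated in *tud* mutant brains at an adjusted p of 0.05 or less in limma with Benjamini-Hochberg adjustment over all genes tested, where 14.2% of the 10689 genes tested were called higher and 24.9% were called in either direction. The largest differences were those of the Gq subunit gene *Galphaq* and the protein kinase C gene *inaC*, and the 2 that did not pass were the arrestins. All 10 differences were positive, with a median of 1.12 on the log2 scale, against 0.07 for all genes tested. Changes are differences of log2(FPKM + 1), *tud* mutant minus control, with the female and the male difference weighted equally, and a scale with a pseudocount slightly understates the change of low genes.

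The arrestins bind activated rhodopsin and end its signal, and *Arr2* is the more abundant of the pair in photoreceptors. *Arr2* (FBgn0000121, chromosome arm 3L, 8647261 to 8648936, dm6) was at 2662, 893 and 2132 FPKM in female brains of the *tud* mutant and at 1348, 1308 and 1164 FPKM in control female brains. In males it was at 1889, 1754 and 2508 FPKM in *tud* mutant brains and at 1026, 1479.5 and 918 FPKM in control brains. The male groups did not overlap, whereas in females the library labelled *tud* mutant female brain replicate 2 lay below every control and the other mutant libraries above. The log2 difference of *Arr2* was 0.65 (standard error 0.29), with an adjusted p of 0.113 in limma, and did not pass the threshold. *Arr1* (FBgn0000120, chromosome arm 2L, 18078269 to 18081307) was at 1167, 274 and 824 FPKM in female brains of the *tud* mutant and at 503, 465 and 469 FPKM in control female brains. Male brains had 714, 601 and 923 FPKM in the *tud* mutant and 425, 632 and 554 FPKM in the control. These groups overlapped in both sexes. The log2 difference of *Arr1* was 0.45 (standard error 0.32, limma adjusted p = 0.306). Without the 2 libraries that stand apart it was 0.81 for *Arr1* (adjusted p = 0.0224) and 0.98 for *Arr2* (adjusted p = 0.00925), both past the threshold, an alternative chosen after the data were seen. *Arr2* also passed after quantile normalization, with 0.99 (adjusted p = 0.0227), and after removal of the trend with gene span, with 0.77 (adjusted p = 0.042).

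The *ninaC* gene encodes a myosin of class III with a protein kinase domain, which sits in the rhabdomere and its cytoskeletal core. It (FBgn0002938, chromosome arm 2L, 7377702 to 7384344) was at 295, 126 and 235 FPKM in female brains of the *tud* mutant and at 127, 125 and 119 FPKM in control female brains. In males the values were 255, 190.1 and 238 FPKM in *tud* mutant brains and 92.1, 114 and 71.1 FPKM in control brains. The male groups were apart, and in females only the library labelled *tud* mutant female brain replicate 2 lay among the controls. The log2 difference was 1.02 (standard error 0.21, limma adjusted p = 0.0156), a fold of 2.03.

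Both channel genes were upregulated. *trp* (FBgn0003861, chromosome arm 3R, 29914521 to 29920289), which encodes the calcium-permeable channel that carries most of the light-induced current, was at 195, 65.6 and 145 FPKM in female brains of the *tud* mutant, against 58.7, 60.5 and 56.4 FPKM in control female brains. In males it was at 167, 118 and 172 FPKM in *tud* mutant brains and at 38.3, 91.5 and 53.0 FPKM in control brains. Every mutant library lay above every control library of its sex, although the library labelled *tud* mutant female brain replicate 2 did so by a small margin. The log2 difference of *trp* was 1.22 (standard error 0.28, limma adjusted p = 0.0186). *trpl* (FBgn0005614, chromosome arm 2R, 9753697 to 9765518), which encodes the related TRP-like channel, was at 91.1, 30.1 and 74.6 FPKM in female brains of the *tud* mutant and at 24.3, 29.8 and 31.0 FPKM in control female brains. Male brains had 66.2, 49.9 and 84.3 FPKM in the *tud* mutant and 12.2, 33.4 and 21.1 FPKM in the control. Its male groups were apart and its female groups overlapped by the same single mutant library. The log2 difference of *trpl* was 1.33 (standard error 0.30, limma adjusted p = 0.0182).

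Enzymes of lipid signalling and a scaffold link the G protein to the channels. *norpA* (FBgn0262738, chromosome X, 4322626 to 4365408), the phospholipase C beta gene whose loss blinds the fly, was at 112, 86.9 and 75.6 FPKM in female brains of the *tud* mutant and at 44.9, 31.0 and 21.5 FPKM in control female brains. In males it was at 109.6, 84.9 and 86.3 FPKM in *tud* mutant brains and at 54.8, 30.7 and 30.0 FPKM in control brains. The genotypes were well apart in both sexes. The log2 difference was 1.41 (standard error 0.21, limma adjusted p = 0.0051), and it passed the threshold in each of the 22 alternatives. *inaC* (FBgn0004784, chromosome arm 2R, 16898535 to 16901575), the eye-enriched protein kinase C that acts in shutting off the response, was at 65.8, 29.8 and 56.8 FPKM in female brains of the *tud* mutant and at 18.5, 19.8 and 18.1 FPKM in control female brains. Its male values were 69.4, 43.9 and 52.7 FPKM in *tud* mutant brains and 14.5, 21.7 and 10.1 FPKM in control brains. The groups were again apart in both sexes. The log2 difference was 1.56 (standard error 0.23, limma adjusted p = 0.0040), a fold of 2.95, and was past the threshold in each of the 22 alternatives.

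*inaD* (FBgn0001263, chromosome arm 2R, 22855688 to 22858794) encodes the PDZ scaffold that gathers TRP, phospholipase and protein kinase C into one complex. It was at 45.9, 18.01 and 34.7 FPKM in female brains of the *tud* mutant and at 15.6, 17.2 and 18.2 FPKM in control female brains. The male values were 45.2, 35.02 and 48.3 FPKM in *tud* mutant brains and 12.1, 32.4 and 14.0 FPKM in control brains. In each sex 1 library came close to the other genotype or overlapped it, namely the library labelled *tud* mutant female brain replicate 2 and control male brain replicate 2. The log2 difference was 1.02 (standard error 0.27, limma adjusted p = 0.0258), and it passed in 17 of 22 alternatives. *rdgA* (FBgn0261549, chromosome X, 8907068 to 9029476), the diacylglycerol kinase gene that removes the lipid made by phospholipase C, was at 47.9, 32.4 and 32.7 FPKM in female brains of the *tud* mutant and at 27.4, 16.0 and 17.5 FPKM in control female brains. In males it was at 38.9, 33.9 and 37.8 FPKM in *tud* mutant brains and at 28.0, 18.2 and 22.2 FPKM in control brains. All mutant libraries lay above the controls of their sex. The log2 difference of *rdgA* was 0.78 (standard error 0.17, limma adjusted p = 0.0165). This gene spans 122409 bases and overlaps 11 other annotated genes, and after the trend of each library with gene span was removed its log2 difference was 0.27 and no longer passed (adjusted p = 0.164).

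*Galphaq* (FBgn0004435, chromosome arm 2R, 12612740 to 12623197) encodes the alpha subunit that couples rhodopsin to phospholipase C. It was at 191, 162 and 153 FPKM in female brains of the *tud* mutant and at 76.0, 59.0 and 40.1 FPKM in control female brains. In males it was at 168, 127 and 148 FPKM in *tud* mutant brains and at 66.9, 14.96 and 40.6 FPKM in control brains. Every mutant library had at least 127 FPKM and every control library at most 76.0 FPKM, across both sexes. The log2 difference was 1.80 (standard error 0.31, limma adjusted p = 0.0090), a fold of 3.49, the largest of the 10, and it passed in each of the 22 alternatives. Within groups *Galphaq* and *Arr1* were the most variable of the 10, each with a standard deviation of 0.59 on the log2 scale, against 0.30 for *rdgA*, the least variable, and a median of 0.33 over all genes tested.

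The number of genes that passed rested on single libraries. It was 3 without *tud* mutant male brain replicate 1, when *norpA*, *inaC* and *Galphaq* passed and 2.1% of all genes were called higher, and 5 without control female brain replicate 3, when 2.76% were. It was 10 without the library labelled *tud* mutant female brain replicate 2, when 7.46% of all genes were called higher, and 7 or 8 without any other single library, when 3.77 to 23% of all genes were called higher, the least with *tud* mutant male brain replicate 2 left out and the most with control male brain replicate 1 left out. Without both libraries that stand apart it was 10, with 8.63% of all genes called higher. All 10 differences were positive in each of the 22 alternatives run. The balancer with its transgene and the deficiency differed between the genotypes in every library, so for all 10 genes their effects and that of the loss of Tudor cannot be told apart. Of the 10 genes, 6 lie on the second chromosome, on which mutant and control also carried different homologues, and the 4 others, *Arr2*, *trp*, *norpA* and *rdgA*, lie on the third chromosome and the X. In whole brains, more cells of a type and more RNA per cell cannot be told apart either.

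**Figure D2:**
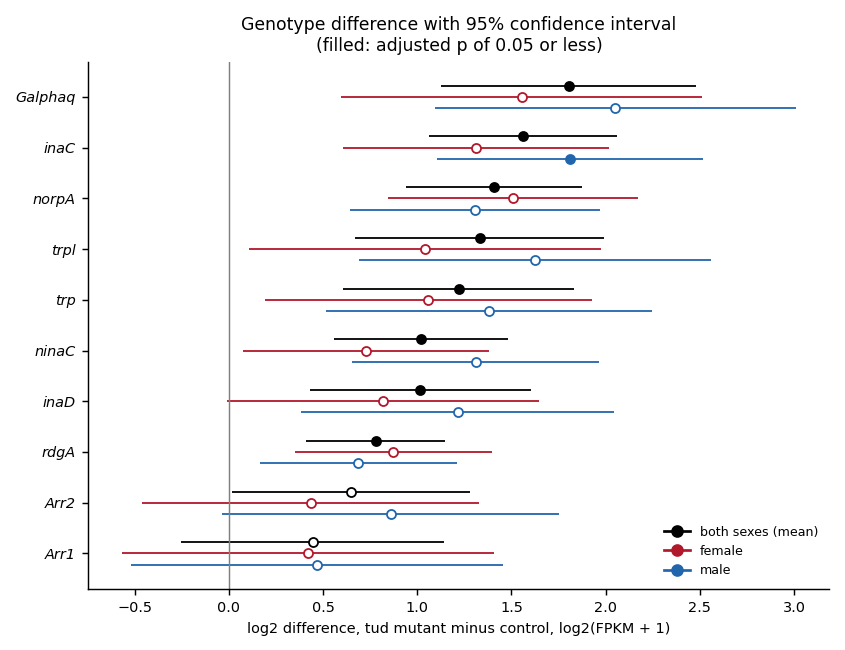
Difference of log2(FPKM + 1), *tud* mutant minus control, for each of the 10 genes (horizontal axis), as the mean of both sexes, in female and in male brains, with 95% confidence intervals from limma; filled points have an adjusted p of 0.05 or less. All 30 points lie to the right of 0, from 0.42 for *Arr1* in females to 2.05 for *Galphaq* in males, and the intervals of the sexes overlap for every gene.

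Taken alone, neither sex gave many calls. In female brains none of the 10 genes passed the threshold in limma, where 0.337% of all genes did. Of the 10, 7 had an unadjusted p under 0.05, as did 16.9% of all genes. The female log2 differences ran from 0.42 for *Arr1* (standard error 0.45) to 1.55 for *Galphaq* (standard error 0.43), with the smallest limma adjusted p, 0.0729, for *norpA* (log2 difference 1.51, standard error 0.30). Without the 2 libraries that stand apart, 6 of the 10 passed in females, *ninaC*, *trp*, *trpl*, *inaC*, *inaD* and *Galphaq*, where 1.4% of all genes did. In male brains *inaC* alone passed, with a log2 difference of 1.81 (standard error 0.32, limma adjusted p = 0.0346), where 1.23% of all genes were called and 0.683% were called higher. It passed without 4 of the 12 brain libraries and not without the 8 others, and it did not pass when males were fitted alone (adjusted p = 0.113 at the same log2 difference). The male count was 7 without the library labelled *tud* mutant female brain replicate 2 (9.6% of all genes called) and 6 without control male brain replicate 1 (31.7%), and 0 or 1 without any other. Of the 10, 8 had an unadjusted p under 0.05 in males, as did 33.2% of all genes. The male differences ran from 0.47 for *Arr1* (standard error 0.45) to 2.05 for *Galphaq* (standard error 0.43, limma adjusted p = 0.0504), and without the 2 libraries that stand apart 5 genes passed, where 0.997% of all genes did.

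No difference between the sexes passed for these genes. The female difference minus the male difference ran from −0.58 for *ninaC* (95% interval −1.51 to 0.34) and *trpl* (−1.90 to 0.74) to 0.20 for *norpA* (−0.74 to 1.14). None of the 10 passed in limma (adjusted p = 0.9997 for each), none had an unadjusted p under 0.05, and 0.0187% of all genes passed. These intervals are wide beside the genotype differences themselves. Averaged over genotype, the level in female minus male brains ran from −0.26 for *inaD* (95% interval −0.84 to 0.33) to 0.44 for *Galphaq* (−0.23 to 1.12). None of the 10 passed (limma adjusted p of 0.668 to 0.979), none had an unadjusted p under 0.05, and 0.72% of all genes passed. *norpA* and *rdgA* lie on the X chromosome, of which males have a single copy, and their female minus male differences were −0.14 (standard error 0.21) and −0.09 (standard error 0.17).

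The separation of the libraries was also counted gene by gene. In both sexes every *tud* mutant library lay above every control library for *trp*, *norpA*, *inaC*, *Galphaq* and *rdgA*, 5 of the 10, against 10% of the 10689 genes tested. In females these were the same 5 genes, against 16.3% of all genes. In males all but *Arr1* were separated, 9 of 10, against 19.4% of all genes. With the 2 libraries that stand apart left out, all 10 were separated in both sexes, against 12.4% of all genes.

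The proportions of the genes within a library were set against *Arr2*, the most abundant of them, a choice made after the values were seen. Relative to *Arr2*, the genes *ninaC*, *trp*, *trpl* and *inaC* were higher in every mutant library than in every control library of the same sex, 4 of the 9 other genes, where 0.449% of all genes were. In the same way 13.9% of all genes were lower, whereas by plain FPKM 10% were higher and 9.01% lower. The small share above the controls is thus set in part by the choice of *Arr2*. *trp* amounted to 6.81 to 7.35% of the *Arr2* FPKM in female brains of the *tud* mutant and to 4.35 to 4.85% in control female brains. In males the *trp* share was 6.74 to 8.86% in *tud* mutant brains and 3.73 to 6.18% in control brains. The library labelled *tud* mutant female brain replicate 2, in which *trp* itself was hardly above the controls, thus had a *trp* to *Arr2* proportion like that of the other mutants. Other proportions in that library were not alike. *norpA* was at 9.72% of *Arr2* there, against 4.22 and 3.55% in the other mutant female brains. *Galphaq* was at 18.1%, against 7.18 and 7.16%, and *rdgA* at 3.63%, against 1.80 and 1.53%. *inaC* amounted to 2.47 to 3.33% of *Arr2* in *tud* mutant female brains and to 1.37 to 1.56% in control female brains. In males its share was 2.10 to 3.68% in *tud* mutant brains and 1.11 to 1.47% in control brains, again without overlap.

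The share of *trpl* was 3.37 to 3.502% in *tud* mutant female brains and 1.81 to 2.66% in control female brains. In males it was 2.85 to 3.505% in the *tud* mutant and 1.19 to 2.30% in the control. *ninaC* was at 11.02 to 14.1% of *Arr2* in *tud* mutant female brains and at 9.46 to 10.2% in control female brains. Male brains had a *ninaC* share of 9.50 to 13.5% in the *tud* mutant and 7.69 to 8.97% in the control. In females *norpA*, *inaD* and *Galphaq* were separated too, 7 genes in all against 1.75% of all genes, and in males only the 4 named were, against 0.823%. *Arr1* went the other way in males, at 34.3 to 37.8% of *Arr2* in *tud* mutant brains and 41.5 to 60.4% in control brains, and overlapped in females, at 30.7 to 43.8% and 35.5 to 40.3% in *tud* mutant and control brains. With the 2 libraries that stand apart left out, *inaD* joined the 4 genes, against 0.477% of all genes. The count depended on the yardstick. With *Arr1* in place of *Arr2* it was 5 (*trp*, *trpl*, *inaC*, *inaD* and *Galphaq*, against 0.589% of all genes), and with the major rhodopsin gene *ninaE* or with *norpA* it was 0, against 0.15% and 0.122%.

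**Figure D3:**
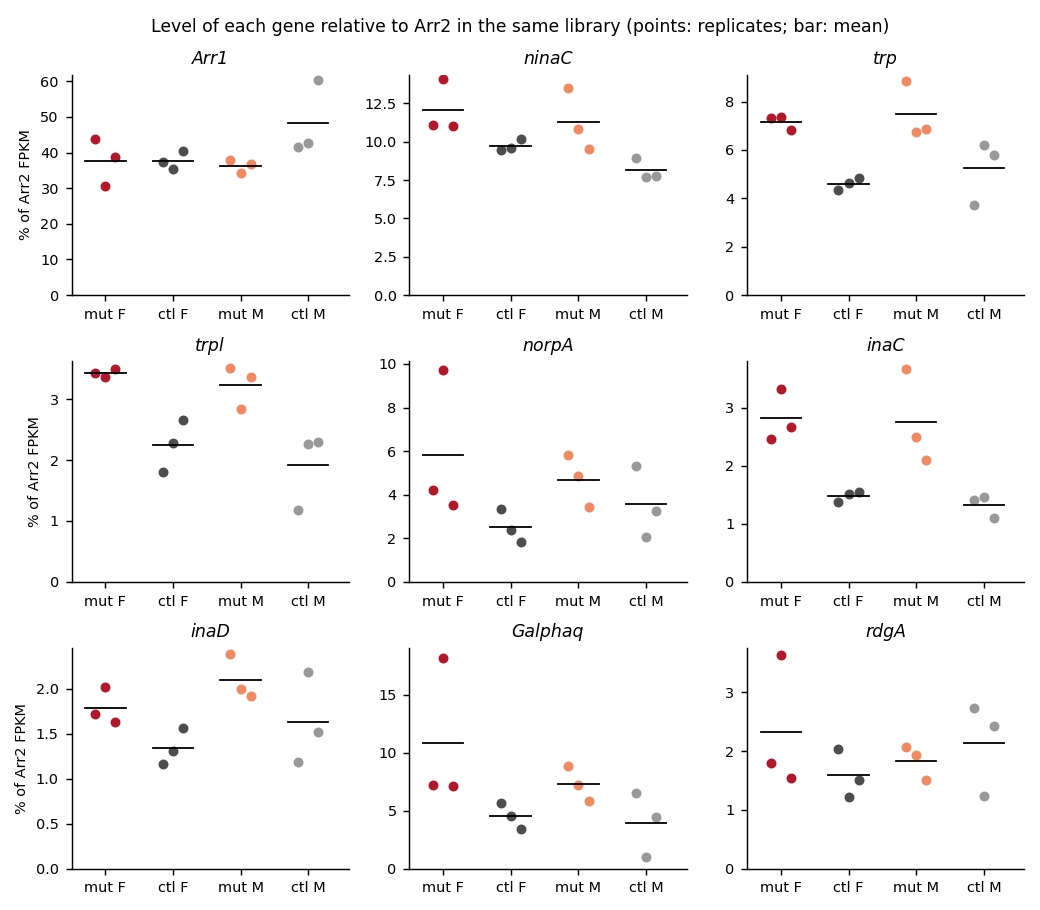
FPKM of each of the other 9 genes as a percentage of the *Arr2* FPKM of the same library (vertical axes, linear, from 0), with groups named as *tud* mutant (mut) or control (ctl) and female (F) or male (M); points are replicates and bars are means (n = 3). For *ninaC*, *trp*, *trpl* and *inaC* the mutant points lie above the control points of the same sex, for example 6.81 to 7.35% against 4.35 to 4.85% for *trp* in females, whereas those of *Arr1* overlap in females and lie below the controls in males.

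In the ovary, which has no photoreceptors, 6 of the 10 genes were near 0 and *norpA* and *Galphaq* were well expressed. *Arr1*, *Arr2*, *ninaC*, *trp*, *trpl* and *inaC* were at 0.382 FPKM or less in each of the 6 ovary libraries, and *inaC* was listed at 0 in all 3 *tud* mutant ovaries. At the estimated depth, no ovary library held more than about 15.4 fragments of any of these 6 genes. *inaD* was at 0.850, 0.601 and 0.557 FPKM in *tud* mutant ovaries and at 0.439, 0.448 and 0.420 FPKM in control ovaries, about 19.7 to 43.8 fragments a library. It overlaps by 7 bases the ribosomal protein gene *RpL23* on the opposite strand, which was at 1298 to 1637 FPKM in the ovary, and its part in the *inaD* reads was not tested. *rdgA* was at 2.27, 3.04 and 3.13 FPKM in *tud* mutant ovaries and at 2.38, 2.28 and 2.11 FPKM in control ovaries. *norpA* was at 19.0, 17.0 and 18.3 FPKM in *tud* mutant ovaries and at 18.4, 18.4 and 16.6 FPKM in control ovaries. *Galphaq* was the highest of the 10 in every ovary library, at 95.6, 78.1 and 84.2 FPKM in *tud* mutant ovaries and at 81.6, 75.2 and 78.5 FPKM in control ovaries.

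Compared across both genotypes, 9 of the 10 genes were higher in female brain than in ovary, where 46.9% of the 10443 genes tested were called higher and 85.6% in either direction. *Arr2* had a difference of 10.34 on the log2(FPKM + 1) scale (standard error 0.22, limma adjusted p = 2.7e-12), the fifth highest of all genes tested, and *Arr1* one of 9.03 (standard error 0.28). Next came *ninaC* with 7.26, *trp* with 6.39, *trpl* with 5.32, *inaC* with 4.96, *inaD* with 3.95 and *rdgA* with 3.00. The 6 genes near 0 in the ovary and *inaD* reached the mean of 1 FPKM needed for testing only through the brain. A higher level in brain was thus largely given for them by the filter, and their calls are no separate support. Without the filter 9 of the 10 genes passed too, where 43.6% of all genes were called higher. Sizes for the 6 genes and for *inaD* also depend on the pseudocount. With a pseudocount of 0.1 the difference of *Arr2* was 12.72, that of *inaC* was 8.16 and that of *inaD* was 5.17. *norpA* was higher in female brain by 1.51 (standard error 0.16, limma adjusted p = 2.8e-06). *Galphaq* did not pass, with 0.25 (95% interval −0.05 to 0.55, limma adjusted p = 0.111). The median over the 10 genes was 5.14, against 0.18 for all genes. After the span trend was removed, *norpA* and *Galphaq* turned to −0.29 (adjusted p = 0.053) and −0.17, so that 8 genes passed.

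No genotype difference passed in the ovary. Only *norpA*, *Galphaq* and *rdgA* reached the mean of 1 FPKM needed for testing, with log2 differences of 0.02 (95% interval −0.14 to 0.19), 0.13 (−0.07 to 0.32) and 0.22 (−0.10 to 0.54). None passed or had an unadjusted p under 0.05, and 4.09% of all genes tested passed. Without the filter all 10 were tested in the ovary and none passed, where 2.43% of all genes did. Of them *Arr2*, with a log2 difference of −0.25 (limma adjusted p = 0.259), and *inaD*, with 0.21 (limma adjusted p = 0.272), had an unadjusted p under 0.05. The genotype difference was larger in female brain than in ovary for *Galphaq*, by 1.43 (standard error 0.27, limma adjusted p = 0.0385), the single gene of the 10 that passed, where 1.05% of all genes did and 0.479% did upward. It did not pass without 9 of the 12 single libraries, and passed when control female brain replicate 1 or 3 or the library labelled *tud* mutant female brain replicate 2 was left out. *norpA* followed with 1.48 (standard error 0.31, limma adjusted p = 0.0584). Without the library labelled *tud* mutant female brain replicate 2, 9 of the 10 passed this comparison, where 3.38% of all genes did. The female brain libraries in it are those of the brain comparison. *Arr1*, *Arr2*, *ninaC*, *trp*, *trpl*, *inaC* and *inaD* were below 1 FPKM in every ovary library and met the filter only through the brain. For these genes the comparison of the tissues largely repeats the female brain difference and is no separate test.

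**Figure D4:**
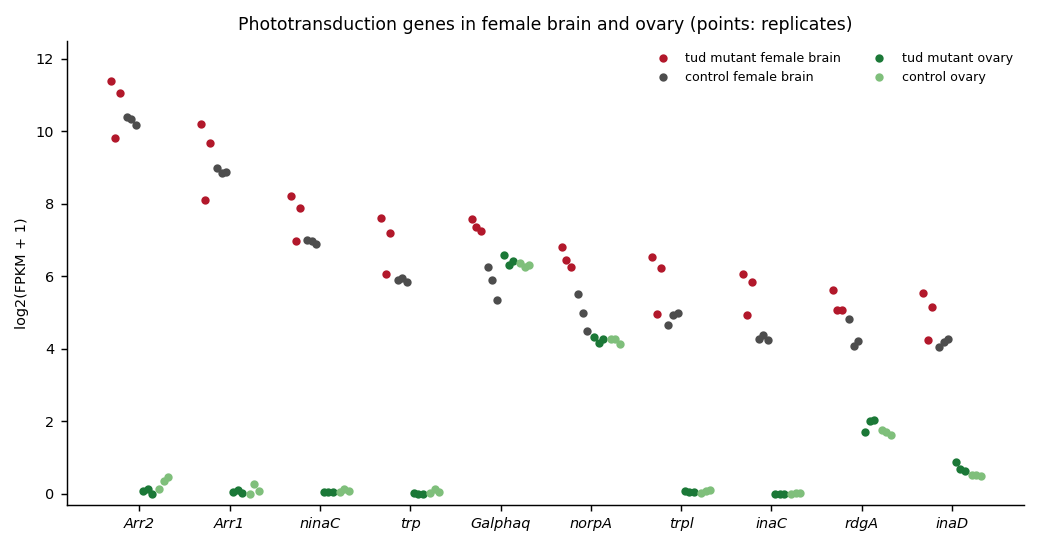
Level of the 10 genes as log2(FPKM + 1) (vertical axis) in *tud* mutant and control female brains and in *tud* mutant and control ovaries, each point 1 library (n = 3 a group). *Arr2* at the left stands at 893 to 2662 FPKM in these brains and at most 0.382 FPKM in ovary, whereas *Galphaq* in ovary, at 75.2 to 95.6 FPKM, lies below the mutant female brains and close to or above the control ones.

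The rest of the pathway moved in part with the 10 genes. Of 22 other genes of phototransduction and rhabdomere structure, 21 were matched and 20 tested. Of these, 9 were higher and none lower in *tud* mutant brains, with a median log2 difference of 0.51. Over all genes tested 14.2% were called higher and 10.8% lower, and the median was 0.07. *inaF-B*, which encodes a small partner of the TRP channel, was at 33.3 to 52.7 FPKM in female brains of the *tud* mutant and at 6.59 to 9.89 FPKM in control female brains, and at 26.1 to 41.0 and 3.02 to 6.97 FPKM in *tud* mutant and control male brains. Its log2 difference was 2.33 (standard error 0.20, limma adjusted p = 0.00013), above that of any of the 10 genes. *chp*, the gene of the photoreceptor adhesion protein chaoptin, followed with 2.07 (standard error 0.17). It was at 37.3 to 69.8 FPKM in *tud* mutant and 13.9 to 16.7 FPKM in control female brains and at 45.9 to 76.9 and 10.2 to 11.4 FPKM in *tud* mutant and control male brains. *rdgC*, a calcium-dependent rhodopsin phosphatase, had 1.08 (standard error 0.15) and *eys*, which encodes a matrix protein between rhabdomeres, 0.80 (standard error 0.18). The partners of *Galphaq* in the eye, named here after their values were seen, differed in call. *Ggamma30A* passed, with 0.93 (standard error 0.27, limma adjusted p = 0.0321), and *Gbeta76C* did not, with 0.47 (standard error 0.32, limma adjusted p = 0.279).

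The photopigments at the head of the cascade were uneven. Of 7 rhodopsin genes 3 were higher and none lower, where 14.2% of all genes tested were called higher and 10.8% lower. *ninaE*, the rhodopsin of the outer photoreceptors, had a log2 difference of 1.17 (standard error 0.35, limma adjusted p = 0.0366), *Rh3* one of 1.99 (standard error 0.25) and *Rh5* one of 2.50 (standard error 0.32), whereas *Rh4* with 1.11 (standard error 0.42, limma adjusted p = 0.0704) did not pass. *Rh2*, at 481 to 1132 FPKM over the brain libraries, had 0.04 (standard error 0.22, limma adjusted p = 0.909). *Rh6* had 0.28 (standard error 0.31, limma adjusted p = 0.514) and *Rh7* 0.15 (standard error 0.14, limma adjusted p = 0.442). None of the 5 genes that supply the chromophore passed, and their median was 0.16. Relatives of the 10 genes that act outside the visual cascade were tested for 16 of 18, of which 4 were higher and none lower, with a median of 0.41, against 14.2% of all genes tested called higher and a median of 0.07. Among them were *Pkc53E*, another conventional protein kinase C, with 1.02 (standard error 0.24), *cta*, another G protein alpha subunit, with 0.87 (standard error 0.24), the atypical protein kinase C gene *aPKC* with 0.75 (standard error 0.14) and *sl*, a phospholipase C gamma, with 0.54 (standard error 0.12). The nonvisual arrestin gene *krz* had 0.28 (standard error 0.14, limma adjusted p = 0.152) and the other phospholipase C beta gene *Plc21C* 0.59 (standard error 0.22, limma adjusted p = 0.0672). Among other diacylglycerol kinase genes, *Dgk* had 0.05 (standard error 0.15, limma adjusted p = 0.834) and *Dgkepsilon* 0.05 (standard error 0.11, limma adjusted p = 0.742).

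**Figure D5:**
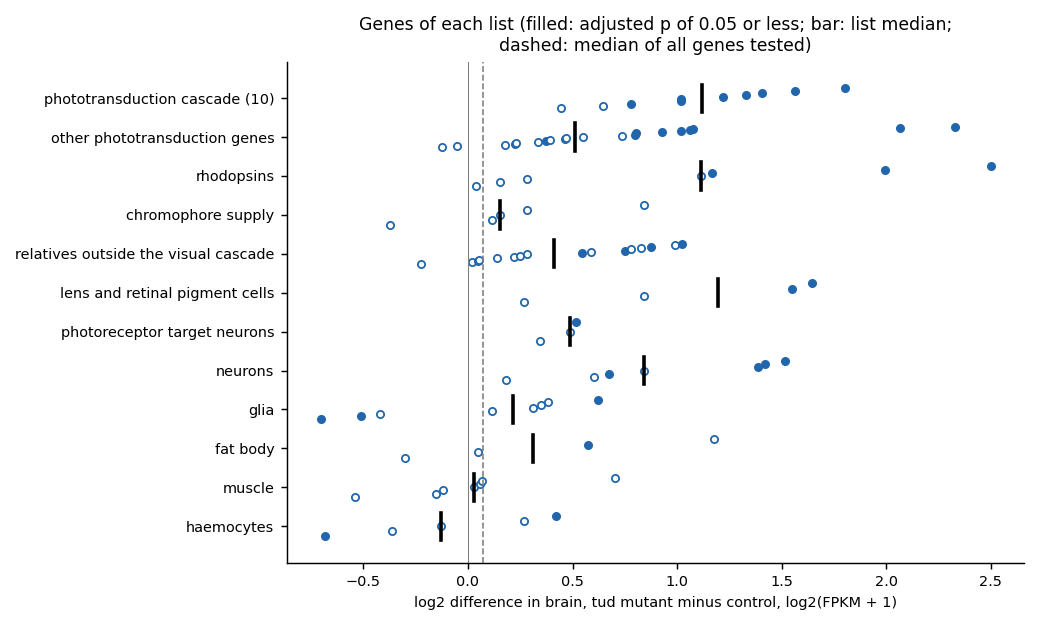
Difference of log2(FPKM + 1) in brain, *tud* mutant minus control, for every tested gene of 12 lists (open points did not pass an adjusted p of 0.05, filled points did); thick bars are list medians and the dashed line is the median of all genes tested, 0.07. The medians of the 10 cascade genes (1.12), the rhodopsins (1.11) and the lens and retinal pigment cell markers (1.20, from only 4 genes that met the filter) lie furthest to the right. That of the general neuronal markers (0.84) follows, and those of muscle (0.03) and haemocytes (−0.13) lie left of the dashed line.

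Markers of other cells that the dissected tissue could hold were counted in the same way, and over all genes tested 14.2% were called higher and 10.8% were called lower. Photoreceptor markers beside the 10 genes were at a summed 1650.3 to 6202 FPKM in female brains of the *tud* mutant and 1502 to 1842 FPKM in control female brains, and at 2602 to 4226 and 895 to 2115 FPKM in *tud* mutant and control male brains, with 4 of 7 higher. These 4 are *ninaE*, *Rh3*, *Rh5* and *chp*, already counted above, and 6 of the 7 markers stand in the rhodopsin list or that of the other phototransduction genes. Lens and retinal pigment cell markers had 2 of 4 tested genes higher, *Crys* and *Cpr72Ec* (1.55, standard error 0.42), and a median of 1.20. *Pdh* (0.84, standard error 0.34, limma adjusted p = 0.0889) and *retinin* (0.27, standard error 0.39, limma adjusted p = 0.621) did not pass. *Cpr66D*, at 0.244 to 1.51 FPKM over the brain libraries, fell below the filter. The sum of all 5 markers was 102 to 467 FPKM in *tud* mutant and 118 to 138 FPKM in control female brains, and 228 to 378 and 118 to 245 FPKM in *tud* mutant and control male brains. The lens protein gene *Crys* was at 1.40 to 4.52 FPKM in *tud* mutant and 0.459 to 0.499 FPKM in control female brains, and at 4.97 to 7.34 and 0.655 to 1.69 FPKM in *tud* mutant and control male brains (log2 difference 1.65, standard error 0.23). With control brains mostly below 1 FPKM, *Crys* met the filter through the mutant libraries, so its call and its weight in the list median are no separate support. Of the markers of neurons that receive photoreceptor input, 1 of 3 was higher (*HisCl1*, a histamine-gated channel gene, 0.51, standard error 0.16), with a summed 35.7 to 48.0 FPKM in *tud* mutant and 25.1 to 35.4 FPKM in control female brains, and 36.5 to 39.1 and 17.5 to 33.4 FPKM in *tud* mutant and control male brains.

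Of the general neuronal markers 4 of 7 were higher, *Syt1*, *nSyb*, *fne* and *VGlut*, and *elav*, *brp* and *Gad1* did not pass. Their median was 0.84, with a summed 835 to 1728 FPKM in *tud* mutant and 530.2 to 745 FPKM in control female brains, and 983 to 1205 and 515 to 844 FPKM in *tud* mutant and control male brains. Glial markers had 1 gene higher and 2 lower of 8 (median 0.21), with a summed 2908 to 3156 FPKM in *tud* mutant and 2626 to 2947 FPKM in control female brains, and 2891 to 3153 and 3129 to 3199 FPKM in *tud* mutant and control male brains. Fat body markers had 1 gene higher of 4 (median 0.31), muscle markers none of 7 (0.03) and haemocyte markers 1 higher and 1 lower of 5 (−0.13). The fat body sum was 791 to 2312 FPKM in *tud* mutant and 663 to 1247 FPKM in control female brains. In males it was 512 to 707 and 188 to 577 FPKM in *tud* mutant and control brains. The ranges of the genotypes overlapped in both sexes, as did those of the muscle and haemocyte sums. No photoreceptor, neuronal or glial marker of the lists was at 0 throughout a brain group. The part of any of these cells in the values of the cascade genes was not tested, and how much retina stayed on the dissected brains is not given in the sources used here.

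By the root mean square difference between centred log2 profiles over the 12 brain libraries, the genes most like the mean of the 10 were *CAH2* (0.157), *boss* (0.188), *Cpr49Ae* (0.220), *CG14275* (0.237) and *t* (0.239), where the median over 10679 genes was 0.705. Among the 10 themselves the distance ran from 0.144 for *ninaC* to 0.690 for *Galphaq*. *CAH2* encodes a carbonic anhydrase, *boss* the ligand that the eighth photoreceptor of each ommatidium presents to its neighbour, *Cpr49Ae* a cuticular protein and *t* the Tan hydrolase that frees histamine in photoreceptors. The profile itself was highest in *tud* mutant female brain replicate 1 and lowest in control male brain replicate 3, with the library labelled *tud* mutant female brain replicate 2 below the other mutants and above every control.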

How the data were processed

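RNA-seq libraries were made from total RNA after depletion of ribosomal RNA, with a strand-specific kit. The deposited values are FPKM per gene and library, which the authors made from reads mapped to the dm6 assembly. The submitters' processing notes name TopHat2 2.0.13, Cufflinks and Cuffnorm 2.2.1, and whether libraries were also scaled to each other is not given in the sources used here. Positions and symbols came from Ensembl release 115 of the same assembly. The analysis was run in R 4.3.3 on the log2(FPKM + 1) scale with two-sided tests of limma 3.58.1 (empirical Bayes with trend), for genes with a mean of at least 1 FPKM over the libraries of a fit. The brain fit held 12 libraries in 4 groups, the ovary fit 6 and the comparison of female brain with ovary 12. The threshold was 0.05 after Benjamini-Hochberg adjustment over all genes of the fit. The spacing of low values gave an estimate of depth. Of these values 67.0 to 73.6% lay within 0.1 of a whole number of fragments, too few for a count test.

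The genes and lists were chosen with earlier results of these data known. From each list up to 4 genes were named, those with the smallest adjusted p in the brain, together with paralogues of the 10 genes, and for likeness the 5 nearest profiles. In some lists genes that did not pass or were not tested were named too. The unmatched list members were *XPORT-A*, *Pkcdelta*, *ap*, *para*, *VAChT* and *wupA*. Samples were grouped by their labels. Each choice was varied in turn, with a pseudocount of 0.1, a filter of 5 FPKM or none, scaling by median of ratios or by quantiles, no trend in the moderation, removal of the trend with gene span (lowess, span 0.3), the replicate number as a block, sex as an additive covariate, each sex alone and each library left out, and, chosen after the data were seen, both libraries that stand apart left out. The labels give replicate numbers but no pairing of samples, so the main fits left them unpaired. Tables and plots were made with numpy 2.4.6, pandas 2.3.3 and matplotlib 3.10.9 under Python 3.11.15.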

Additional observations from a re-analysis of the deposited data

Results flagged for a closer look

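The genotype difference of *Galphaq*, the Gq alpha subunit gene, was larger in female brain than in ovary by 1.43 on the log2 scale (standard error 0.27, limma adjusted p = 0.0385), a difference between the tissues that was itself tested. The *tud* mutant female brains had 191, 162 and 153 FPKM and control female brains 76.0, 59.0 and 40.1 FPKM, whereas *tud* mutant ovaries had 95.6, 78.1 and 84.2 FPKM and control ovaries 81.6, 75.2 and 78.5 FPKM. It did not pass without 9 of the 12 single libraries. The gene lies on the second chromosome, where the genotypes carried different homologues.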

How the results depend on the processing

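The sign of the genotype difference over both sexes was positive for all 10 genes in each of 22 alternatives, and *norpA*, *inaC* and *Galphaq* passed in all of them. Leaving out 1 library at a time gave 3 to 10 genes in the brain (3.58 to 39.1% of all genes called), 0 to 2 in females (0.178 to 1.57%, none in the full comparison), 0 to 7 in males (0.272 to 31.7%), 9 to 10 between female brain and ovary (83.6 to 88.9%) and 0 to 9 for the genotype difference between these tissues (0.428 to 4.53%). It gave 0 for the other comparisons. In females 1 gene, *norpA* (adjusted p = 0.00864), passed with the replicate number as a block (0.393% of all genes) and 6 without the 2 libraries that stand apart (1.4%). In males the number was 3 after quantile normalization (1.97%), 3 with the block (1.39%, *norpA* and *Galphaq* added), 0 with males fitted alone (0.291%) and 5 without the 2 libraries (0.997%). For the genotype difference between the tissues it was 0 with a pseudocount of 0.1 (0.642%), with a filter of 5 FPKM (0.457%) and after removal of the span trend (1.05%), and 2 with median-of-ratios scaling (1.06%), quantile normalization (1.69%) or the block (0.594%). In the brain it was 9 after quantile normalization (24.7%), and between female brain and ovary 8 after removal of the span trend (86.1%). The block changed no count in the other comparisons (8 genes in the brain). For same-numbered libraries, the correlation over genes of their deviations from the group means ran from −0.16 to 0.37 in the brain and from −0.11 to 0.03 in the ovary. It was not set beside that of libraries with different numbers, so it cannot tell whether same-numbered libraries shared a batch. The cause of these changes was not tested.

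Among single genes, signs turned for differences that did not pass, and for *norpA* between female brain and ovary. For the female minus male genotype difference, *Arr1* was at 0.018 with median-of-ratios scaling, 0.037 after removal of the span trend and 0.44 without the 2 libraries, and *Galphaq* at 0.11 without them. For the female minus male level, *Arr1*, *Arr2*, *trp* and *inaD* were at 0.20, 0.31, 0.26 and 0.14 without the 2 libraries, and *Arr2* at 0.023 after removal of the span trend. That removal turned *norpA* to −0.29 and *Galphaq* to −0.17 between female brain and ovary. With 1 library left out, the female minus male genotype difference ran from −0.48 to 0.56 for *Arr1*, −0.74 to 0.048 for *Arr2*, −0.66 to 0.13 for *trp*, −0.0755 to 0.46 for *norpA* and −0.96 to 0.081 for *Galphaq*. The female minus male level ran from −0.39 to 0.13 for *Arr1*, −0.18 to 0.21 for *Arr2*, −0.29 to 0.10 for *trp*, −0.029 to 0.39 for *trpl* and −0.048 to 0.25 for *inaC*. The female genotype difference of *Arr1* ran from −0.0099 to 1.03 and the ovary difference of *norpA* from −0.021 to 0.066. Quantile normalization lowered the median of all genes by 0.11 on the log2 scale in the brain, where the median of the 10 genes was then 1.09, and moved the share of higher calls among all calls to 44.1%, against 56.9% without it (males 37.9% and 55.3%, female brain and ovary 44.7% and 54.8%). Depth limits the 6 genes near 0 in the ovary, whose genotype difference there was tested only without the filter.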
